A study of Homo sapiens with 32 samples.

Results

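The clustered protocadherins are adhesion proteins of the cell surface, encoded on human chromosome 5 by the PCDHA, PCDHB and PCDHG gene clusters. Each variable gene has its own promoter and first exon. In the PCDHA and PCDHG clusters these first exons are spliced to constant exons shared by the cluster, whereas PCDHB genes carry the whole protein in 1 exon. Neurons are known to express different combinations of them, chosen promoter by promoter, and CTCF, cohesin and DNA methylation are known to take part in that choice. The C-type genes PCDHAC1, PCDHAC2, PCDHGC3, PCDHGC4 and PCDHGC5 stand at the ends of their clusters and are known to be used more uniformly than the others.

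Accessibility at these promoters was measured in HEK_CloneZD29 with ATAC-seq, which reads the sites where a transposase can reach and cut DNA. HEK_CloneZD29 is 1 clone derived from human embryonic kidney cells (HEK293T), and its transcription factor ZNF143 bears a degron tag that can be induced. Control libraries were labelled DMSO, and treated libraries came from cells given 50 nM dTAGV-1, a compound that directs tagged proteins to degradation, for 30 minutes. Each group had 8 libraries with counts, replicates 9 to 16, and the clone and its tag were common to both. The genotype label is given for the libraries of replicates 1 to 8, which share the clone. Whether replicates were separate cultures is not stated, so p-values measure the spread between these libraries, which may be technical. The extent of ZNF143 degradation was not analysed here.

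Counted windows were 401 bp long, and a window was taken as a member when its centre fell no more than 500 bp from a transcript start of any protein-coding PCDHA, PCDHB or PCDHG gene. This gave 23 of the 212358 counted windows, at 19 of the 53 genes. PCDHA had 4 windows, PCDHB 5 and PCDHG 14, and 8 of the 23 overlapped another member window and shared counts with it. The centre lay within 100 bp of a start in 18 windows. The farthest inside the limit lay 322 bp from a start, upstream of PCDHGC4, and the nearest outside lay 538 bp from a start of PCDHA2. Library totals ran from 2275856 to 13671039 counts. Control replicate 12 and dTAGV-1 replicates 11 and 12 stood apart by a flatter signal, with 31.0%, 40.3% and 37.8% of their counts in the decile of windows that was highest, while the other 13 libraries had 44% to 47.3%. Among genes known to be active in HEK293T, PAX2, EYA1, NEFL and NEFM had a tested promoter window. LHX1 had a window at the floor of the scale, -2.05 log2 CPM with an SD of 0 in both groups. That window did not pass the filter on low counts. None of PTPRC, CD3E, ALB and HBB, genes of other lineages, had a counted window.

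The bases before the starts are shown because these promoters are known for a conserved element with a CGCT box. The sequences that follow are 120 bases of hg38 ending 1 base before the first annotated start of that promoter, read 5' to 3', with every CGCT in capitals. PCDHGC3, PCDHGC4, PCDHGB7 and PCDHGA10 had a counted window, and PCDHGC5 had none.
PCDHGC3 (chr5:141475827-141475946, plus strand): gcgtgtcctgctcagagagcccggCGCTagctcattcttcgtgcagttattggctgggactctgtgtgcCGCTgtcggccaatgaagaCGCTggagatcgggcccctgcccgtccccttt
PCDHGC4 (chr5:141484877-141484996, plus strand): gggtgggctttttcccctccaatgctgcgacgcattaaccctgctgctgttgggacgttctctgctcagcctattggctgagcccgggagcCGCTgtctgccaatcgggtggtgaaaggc
PCDHGB7 (chr5:141417525-141417644, plus strand): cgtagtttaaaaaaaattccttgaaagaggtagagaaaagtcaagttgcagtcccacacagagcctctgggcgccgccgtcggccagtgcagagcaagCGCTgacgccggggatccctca
PCDHGA10 (chr5:141412867-141412986, plus strand): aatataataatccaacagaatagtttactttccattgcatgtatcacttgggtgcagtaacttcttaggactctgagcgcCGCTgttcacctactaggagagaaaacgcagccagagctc
PCDHGC5 (chr5:141488961-141489080, plus strand): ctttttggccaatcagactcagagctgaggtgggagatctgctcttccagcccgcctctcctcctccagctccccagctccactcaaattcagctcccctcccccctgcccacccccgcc
From the PCDHA and PCDHB clusters, a gene with a counted window (PCDHA2, PCDHB14) is set beside one without (PCDHA4, PCDHB12).
PCDHA2 (chr5:140794732-140794851, plus strand): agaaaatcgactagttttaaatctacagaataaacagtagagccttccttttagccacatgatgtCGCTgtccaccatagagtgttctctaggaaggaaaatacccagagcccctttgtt
PCDHA4 (chr5:140806917-140807036, plus strand): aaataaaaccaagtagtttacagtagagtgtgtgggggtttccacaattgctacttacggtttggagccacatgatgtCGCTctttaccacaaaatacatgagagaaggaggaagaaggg
PCDHB14 (chr5:141223223-141223342, plus strand): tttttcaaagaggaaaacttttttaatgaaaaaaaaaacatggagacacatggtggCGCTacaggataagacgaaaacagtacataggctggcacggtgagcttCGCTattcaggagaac
PCDHB12 (chr5:141208577-141208696, plus strand): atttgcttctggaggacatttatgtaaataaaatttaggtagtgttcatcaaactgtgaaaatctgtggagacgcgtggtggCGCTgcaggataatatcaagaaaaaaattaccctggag

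On the strand of the gene, CGCT began 20 to 120 bases before the canonical start in 47 of the 53 promoters, or 88.7%. Over all 20046 protein-coding canonical starts the share was 35.1%. The box did not separate promoters with a counted window from those without, since 18 of 19 and 29 of 34 held it in that stretch. The bases around the box differed by cluster. ATGTCGCT, searched on the strand of the gene from 150 bases before to 50 after the canonical start, was in 10 of 15 PCDHA promoters, in no PCDHB or PCDHG promoter and in 0.07% of 19993 other promoters. GTGGCGCT was in 14 of 16 PCDHB promoters and in 0.6% of other promoters, and GCCGCTGT was in 12 of 22 PCDHG promoters and in 0.865% of others. These letters were chosen as the most shared within each cluster, so their counts in it are a description. Of the promoters with the PCDHA letters, 1 of 10 had a counted window, PCDHA2, and so had 5 of 14 with the PCDHB letters and 8 of 12 with the PCDHG letters. The clusters themselves differed in this share, with 3 of 15, 5 of 16 and 11 of 22 over all their promoters. Of these open promoters, 1 of 3 in PCDHA, 5 of 5 in PCDHB and 8 of 11 in PCDHG held the letters of their cluster. PCDHA11 and PCDHAC1 were open without them. Among the printed sequences, PCDHA2 and PCDHA4 both hold the PCDHA letters, and PCDHB14 and PCDHB12 both hold the PCDHB letters.

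Which promoters were open was read from the list of counted windows, where open means that the authors listed a window at a start. A counted window lay at 19 of 53 genes, or 35.8%, against 15163 of 20046 protein-coding genes, or 75.6%. A listed window can be empty, as 627 protein-coding promoter windows held 0 counts in all libraries. The PCDHG cluster had 11 of 22 genes with a window, the PCDHB cluster 5 of 16 and the PCDHA cluster 3 of 15. Within PCDHG, 5 of 12 A-type genes, 4 of 7 B-type genes and 2 C-type genes had one. The open PCDHA genes were PCDHA2, PCDHA11 and PCDHAC1, and the open PCDHB genes were PCDHB2, PCDHB8, PCDHB13, PCDHB14 and PCDHB15. In PCDHG they were PCDHGA1, PCDHGA7, PCDHGA9, PCDHGA10, PCDHGA11, PCDHGB1, PCDHGB3, PCDHGB5, PCDHGB7, PCDHGC3 and PCDHGC4. No window lay at PCDHAC2, PCDHGC5 or PCDHB1. In a bulk culture, an opening in fewer cells and a weaker opening in every cell cannot be told apart. A promoter without a counted window has no count here, so its level is unknown, not 0.

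**Figure D1:**
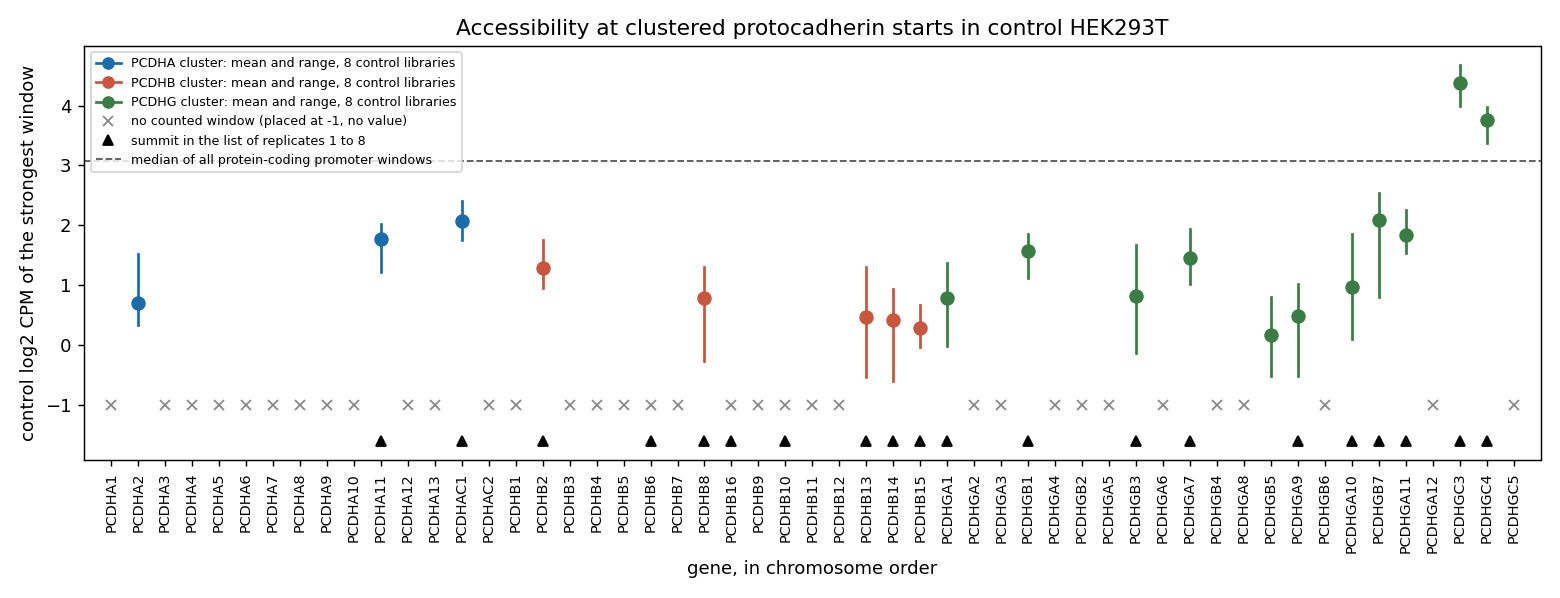
Control accessibility (log2 CPM, vertical axis) of the strongest window at each of the 53 genes in chromosome order, as the mean (dot) and range (line) of 8 control libraries. Crosses are genes without a counted window, placed at -1 with no value, and triangles are genes with a summit in the separate list of replicates 1 to 8. PCDHGC3 and PCDHGC4 lie above the dashed median of all protein-coding promoter windows, 3.07, and the other 17 genes lie below it.

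The separate list of 259926 summits, attached to replicates 1 to 8, gave a set of genes that mostly overlapped. Whether the 2 lists share libraries is not stated. It held a summit within 500 bp of a start at 20 of the 53 genes, and 17 of these also had a counted window. By cluster these were 8 of 16 PCDHB genes, 10 of 22 PCDHG genes and 2 of 15 PCDHA genes. By share PCDHB thus came before PCDHG in the summit list, and after it in the counted windows. PCDHB6, PCDHB10 and PCDHB16 had a summit and no window. PCDHA2 and PCDHGB5 had a window and no summit, with the nearest summit 542 bp from a start of PCDHA2 and 4732 bp from one of PCDHGB5. The highest of the authors' summit scores, on a -log10 scale, were 570 at PCDHGC3, 257 at PCDHGC4 and 132 at PCDHA11.

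Among the open promoters, those of PCDHGC3 and PCDHGC4 were far above the rest. PCDHGC3 is a C-type gene known to be expressed outside the nervous system too, and PCDHGC4 is known for its part in neuronal survival. All windows have the same length, so levels in log2 CPM (CPM, counts scaled to a common library total) can be set side by side. The PCDHGC3 window, chr5:141475702-141476102, ran from 4.00 through a median of 4.41 to 4.68 log2 CPM in control. The window at the PCDHGC4 start, chr5:141484774-141485174, ran from 3.37 through 3.82 to 3.98. The PCDHGC3 level was higher by 0.62 on the log2 scale, in 8 of 8 control libraries, with ranges that did not overlap. They stood at percentiles 81.2 and 67.9 of the 32936 protein-coding promoter windows, of which 627 held 0 counts in all libraries. PCDHGC3 took 25.4% ± 2.96 of all counts in the member windows and the PCDHGC4 windows 22.8% ± 3.06 (SD, n = 8 control libraries).

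A further window lay upstream of PCDHGC4, at chr5:141484475-141484875, and ran from 1.85 through 2.45 to 2.87 log2 CPM in control. The start window was higher than it by 1.33 on the log2 scale, in 8 of 8 libraries, with no overlap. From there down the order was not resolved: each window overlapped the range of the next in all remaining neighbouring pairs. The third gene in order was PCDHGB7, with 0.80 to 2.54 log2 CPM in control and a median of 2.22 at chr5:141417448-141417848. Its lowest value was control replicate 12, and the other 7 control libraries began at 1.98. PCDHGA11 followed among the PCDHG genes, with 1.54 to 2.26 log2 CPM and a median of 1.81 at its start.

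In the PCDHA cluster the highest window belonged to the C-type gene PCDHAC1, with 1.76 to 2.4 log2 CPM in control and a median of 2.15. That window, chr5:140926436-140926836, was centred 337 bp past the canonical start, in an untranslated region of the gene. PCDHA11 came next, with 1.22 to 2.02 log2 CPM and a median of 1.87 at chr5:140868715-140869115, centred 42 bp before its canonical start. PCDHA2 was lower, with 0.33 to 1.52 log2 CPM and a median of 0.59 at chr5:140794600-140795000. Its 8 control libraries held between 7 and 15 counts each. The highest PCDHA2 value was control replicate 12, with 7 counts, and the next was 0.98. The other 12 PCDHA genes, PCDHAC2 among them, had no counted window at a start.

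In the PCDHB cluster the mean control levels of the 5 windows ran from 0.30 to 1.29 log2 CPM. PCDHB2 was the highest, with 0.95 to 1.76 log2 CPM in control and a median of 1.25 at chr5:141094393-141094793. PCDHB8 ran from -0.26 to 1.31 with a median of 1.00, and PCDHB13 from -0.53 to 1.31 with a median of 0.47. Of the 50-base words in each of the PCDHB8 and PCDHB13 windows, 35.5% occur elsewhere in the protocadherin region. Reads from these stretches may not be placed at 1 gene, depending on read length and filters that are not given in the sources used here. The share was 16.5% at PCDHGB7, 9.66% at PCDHGB5, 23.0% in the second window of PCDHA11 and 0% in the other windows. Of the 34 promoters without a window, PCDHGB4 was the 1 with such words in the 300 bases around its start.

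**Figure D2:**
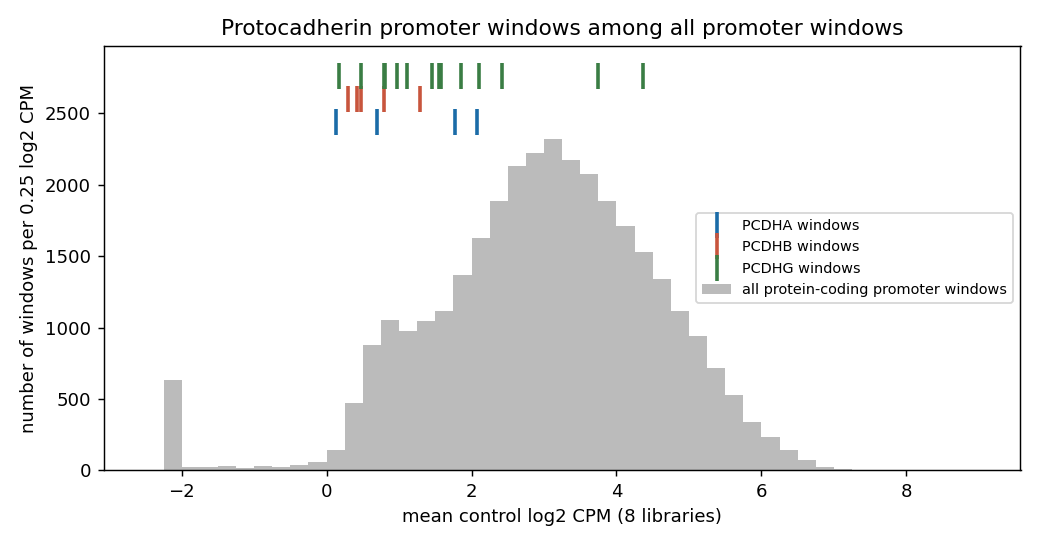
Number of protein-coding promoter windows (vertical axis) by mean control log2 CPM (horizontal axis), with the 23 protocadherin windows as coloured ticks above, 1 row for each cluster. Of the 23, 11 lie below the 10th percentile of promoter windows, and 2 lie above the median. The bar at the left edge holds windows at or near 0 counts.

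In base composition the 5 C-type promoters had the highest GC contents of the 53, whether or not a window was counted there. The canonical promoters, 250 bases before to 50 after the start, had a median GC content of 43.3% in genes with a window and 38.4% in genes without. The median over all protein-coding promoters was 63.7%. The ratio of observed to expected CpG, the dinucleotide at which DNA is methylated, had medians of 0.646 and 0.560, and the ranges of the groups overlapped. PCDHAC1, PCDHGC3 and PCDHGC4, all open, had GC contents of 66.0%, 59.0% and 60.7%. PCDHAC2 and PCDHGC5, with no window, had 63.0% and 55.7%, and PCDHGC5 had the lowest CpG ratio of the 53 promoters, 0.219. These values describe sequence; DNA methylation was not measured.

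**Figure D3:**
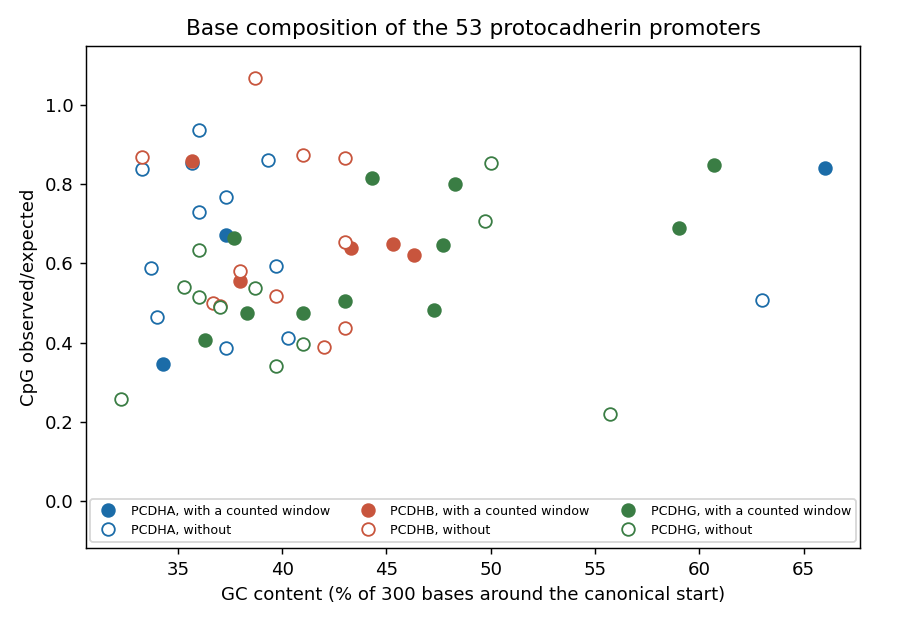
GC content (horizontal axis, % of 300 bases) and CpG observed/expected ratio (vertical axis) of the 53 canonical promoters, filled where the gene had a counted window and open where it had none. The C-type genes are the points above 55% GC, and PCDHGC5 is the lowest point, at 0.219.

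After dTAGV-1 no change was detected at any tested protocadherin promoter window. Genes without a counted window had no value to compare. Of the 23 windows, 21 passed the filter on low counts and were tested, the others being PCDHB13 and the second PCDHA11 window. With edgeR (quasi-likelihood test) and p-values adjusted by Benjamini-Hochberg over 185040 windows, 0 of 21 were higher or lower at an adjusted p of 0.05. DESeq2 and limma voom also called 0. An unadjusted p below 0.05 was reached by 0 windows in edgeR and DESeq2 and by 1 in limma voom. In edgeR it was also reached by 1 window, the one upstream of PCDHGC4, with the replicate number as a block, and by 0 to 2 windows in fits without 1 library. The main edgeR fit put 2876 of 185040 tested windows below that p as lower and 2405 as higher. Over 31702 tested promoter windows these were 711 and 266, so 0 of 21 is near that background. Over all tested windows 0.215% were called, 0.213% lower and 0.00108% higher, and over protein-coding promoter windows 0.634% were, 0.628% lower and 0.00631% higher, so that 0 of 21 is close to that background. The groups overlapped in 23 of 23 windows, which is a description only, as no share over all windows is given beside it. The log2 fold change was positive in 12 windows and negative in 9, with a median of 0.124, against 0.00772 over all tested windows and 0.011 over promoter windows. That median depended on single libraries: it was 0.0665 without dTAGV-1 replicate 13, 0.0715 in limma voom and 0.0534 without replicates 11 and 12 of both groups. Without dTAGV-1 replicate 9 the split was 15 positive and 6 negative. The standard errors ran from 0.14 to 0.36.

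The strongest promoters were measured most closely. In dTAGV-1 libraries PCDHGC3 ran from 3.94 through 4.33 to 4.78 log2 CPM, across the whole range of the control libraries. Control libraries averaged 4.37 ± 0.24 and treated libraries 4.35 ± 0.29 (SD, n = 8), and the log2 fold change was -0.01, with a 95% interval from -0.30 to 0.27. The start window of PCDHGC4 ran from 3.08 through 3.95 to 4.13 in dTAGV-1, with 4 libraries above and 1 below the control range. Its log2 fold change was 0.08, with an interval from -0.20 to 0.36. PCDHGB7 changed by 0.16 (interval -0.19 to 0.50), PCDHAC1 by 0.13 (-0.22 to 0.47) and PCDHA11 by -0.04 (-0.45 to 0.36). PCDHB2 had a log2 fold change of 0.15 (-0.31 to 0.62), and PCDHA2, with few counts, -0.04 (-0.66 to 0.58). PCDHB8 had -0.08 (-0.66 to 0.51).

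**Figure D4:**
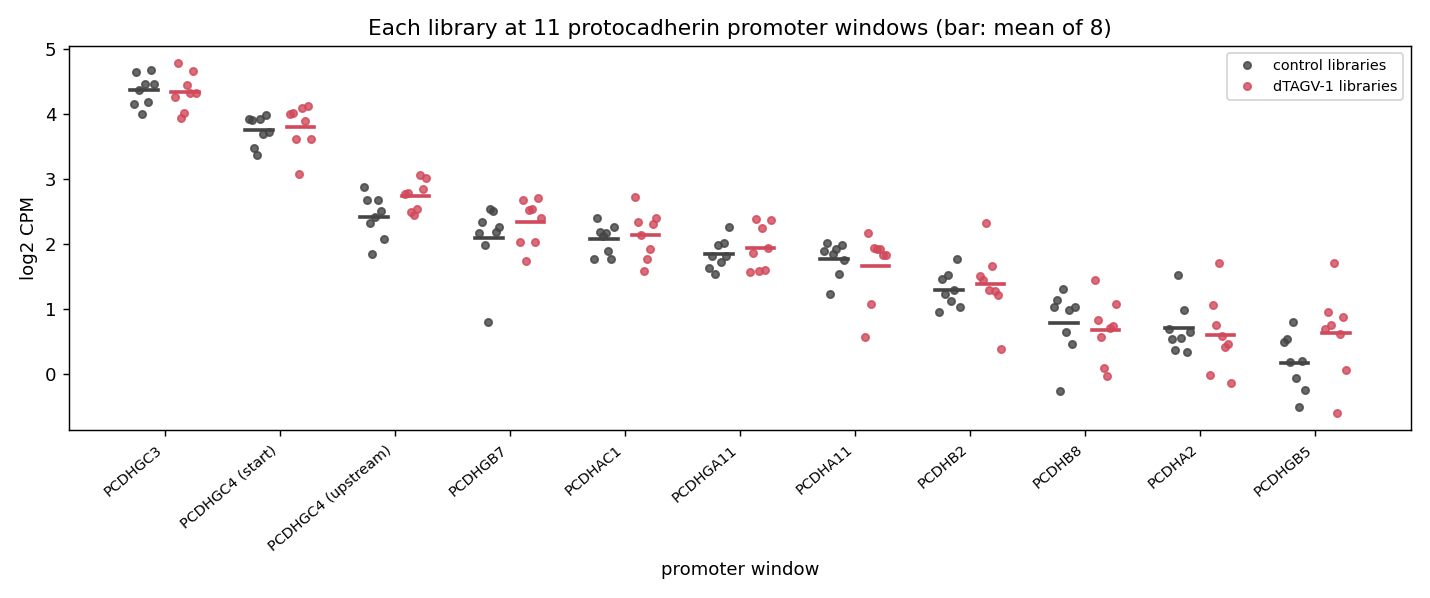
Log2 CPM (vertical axis) of every library at 11 protocadherin promoter windows, control in grey and dTAGV-1 in red, with a bar at the mean of 8. The groups overlap at each of the 11 windows, and PCDHGC3 has the highest means, 4.37 and 4.35.

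The smallest p-values belonged to 4 windows, none of which passed. The window upstream of PCDHGC4 ran from 2.45 through 2.78 to 3.06 log2 CPM in dTAGV-1, against 1.85 to 2.87 in control, and 2 dTAGV-1 libraries lay above the control range. The fitted log2 fold change was 0.30, standard error 0.15 (edgeR unadjusted p = 0.0538, adjusted p = 1.0). PCDHGB5 ran from -0.51 to 0.80 in control, with 4 to 13 counts a library, and from -0.60 to 1.71 in dTAGV-1. Its log2 fold change was 0.62 with an interval from -0.06 to 1.30 (edgeR unadjusted p = 0.071, adjusted p = 1.0). The highest PCDHGB5 value of each group was replicate 12. Over the alternative fits its log2 fold change ran from 0.46 to 0.77, and it was 0.47 without dTAGV-1 replicate 12. PCDHB15 had 0.44 (-0.20 to 1.08) and the second PCDHGA7 window, in a coding exon, -0.28 (-0.74 to 0.18).

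The remaining windows were weak in both groups. PCDHGB1 averaged 1.58 ± 0.23 log2 CPM in control and 1.49 ± 0.40 in treated libraries, and PCDHGA1 0.79 ± 0.47 and 1.11 ± 0.27 (SD, n = 8). PCDHGB3 averaged 0.81 ± 0.57 and 1.03 ± 0.45, and PCDHGA10 0.97 ± 0.53 and 0.72 ± 0.39. PCDHGA9 was the window with the fewest counts in any treated library, 1, and averaged 0.48 ± 0.59 and 0.07 ± 0.82, a log2 fold change of -0.34. In the PCDHB cluster, PCDHB14 averaged 0.42 ± 0.54 and 0.71 ± 0.18, and its 2 groups overlapped. PCDHGA7 and PCDHGA11 each had a pair of overlapping windows, at the start and in the coding exon. The paired values of the log2 fold change were -0.11 and -0.28 at PCDHGA7 and 0.12 and 0.18 at PCDHGA11, so the pairs had the same sign, and they share reads.

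**Figure D5:**
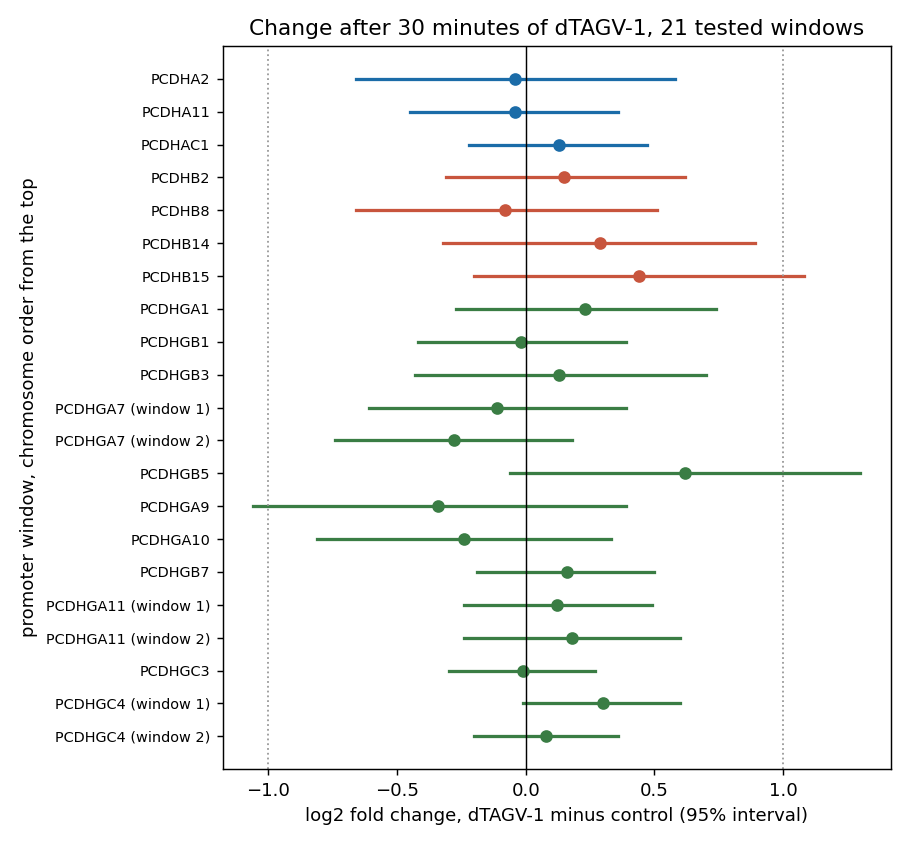
Log2 fold change of dTAGV-1 against control (horizontal axis, dots) with its 95% interval (lines) for the 21 tested windows in chromosome order, blue for PCDHA, red for PCDHB and green for PCDHG. All 21 intervals include 0, and dotted lines mark a 2-fold change in either direction.

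The size of change that the intervals allow differed by window. In 18 of the 21 windows the 95% interval of the change lay within 2-fold in either direction, and in 7 within 1.5-fold. The exceptions to the 2-fold limit were PCDHB15, PCDHGB5 and PCDHGA9, which had intervals reaching 1.08, 1.30 and -1.06. PCDHGC3 and the start window of PCDHGC4 had the narrowest intervals, with a standard error of 0.14 each. For each window a change inside its interval is not excluded. An interval gives the changes that the counts of a window allow, not the smallest change that would have been called. The share of member counts taken by PCDHGC3 and PCDHGC4 averaged 48.2% ± 4.46 over the control libraries and 48.1% ± 5.33 over the treated ones (SD, n = 8).

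The strict form of the core sequence bound by ZNF143 was in 0 of 23 member windows on either strand, against 1.41% of protein-coding promoter windows. A looser form, with more letters allowed at 2 positions, was also in 0 of 23, against 4.39%. The strict CTCF core, which the looser CTCF letters contain, was in 0 of 23, against 1.26% of promoter windows. Each of these counts of 0 among 23 is close to its background. The looser letters CCNNNAGNNGGC were in 3 of 23, at PCDHAC1, PCDHGA7 and PCDHGA11, against 19.0% of promoter windows. That these letters are absent says nothing of binding by either factor.

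Between and inside the clusters, 15 other windows were counted over the 726842 bp from the first PCDHA start to the end of the last PCDHG gene. Of these, 13 were tested and 0 were called, with 0 at an unadjusted edgeR p below 0.05. Of all 185040 tested windows 0.215% were called, and 2876 lower and 2405 higher had such an unadjusted p. Both counts of 0 among 13 are close to that background. A window centred 545 to 583 bp past the canonical start, in the coding first exon, was found at PCDHA2, PCDHA8 and PCDHA11, and at no other gene between 400 and 700 bp. Their control levels were 0.52, 0.49 and 0.64 log2 CPM on average. A single window, chr5:141041079-141041479, lay between the PCDHA and PCDHB clusters, with 2.02 ± 0.50 log2 CPM in control (SD, n = 8), and held the strict CTCF core. Another, chr5:141512314-141512714, lay in an untranslated region at the end of the PCDHG cluster, with 2.65 ± 0.23, and was the only other of the 15 with that core. TAF7, which encodes a subunit of the general transcription factor TFIID, has its start between PCDHB and PCDHG. Its windows measured 2.58 and 3.36 log2 CPM in control, with log2 fold changes of -0.09 and -0.01.

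Genes around the clusters and genes known to act on them were read in the same fit, with lists chosen for function. Of all tested protein-coding promoter windows 0.634% were called, so 0 called in lists of this size is close to that background. Of 14 neighbours, 13 had a tested window at a start, and 0 of 21 windows were called, with a median log2 fold change of -0.01. SLC25A2, between the PCDHB and PCDHG clusters, had no window. The 20 regulators hold CTCF, the cohesin subunits and loaders, the silencing factors SMCHD1 and SETDB1, the repressor REST and enzymes that add or remove DNA methylation. In this list 19 of the 20 genes had a tested window, and 0 of 59 tested windows were called, with a median of 0.00. EHMT2, also in the list, had only a window at -2.05 log2 CPM in both groups, which did not pass the filter. The strongest CTCF window measured 5.13 log2 CPM in control with a change of 0.01, and the strongest SMCHD1 window measured 3.44 with a change of -0.08. Among 21 non-clustered protocadherins and other atypical cadherins, 19 had a window and 0 of 44 tested windows were called, with a median of 0.01. The windows of this list had a median control level of 2.92 log2 CPM, near that of all promoter windows. PCDH9, a non-clustered protocadherin, reached 7.56 log2 CPM in control, and PCDH10 reached 5.17. The list also held weak windows, such as FAT2 at 0.21 and 1.01 and PCDH11X at -0.62, which was not tested. All open clustered promoters lay within the range of that list. Among them PCDHGC3 and PCDHGC4 were the highest, and the others lay at or below 2.10.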

How the data were processed

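ATAC-seq windows of 401 bp with whole-number counts for replicates 9 to 16 were deposited, not normalized, per the file headers. Each column was assigned through its group name and replicate label, and 0 columns were left unused. The authors also deposited 1 value per window and 1 score per summit on the -log10 scale, from 2.0 upward, per the file headers and values. These were used only to describe windows and summits within their lists. The submitters' processing notes name cutadapt 1.8.1, Bowtie2 2.4.4, SAMtools 1.9 and the build hg38. The peak caller, read filters, Tn5 shift and counting tool are not given in the sources used here, nor whether the summit list and the windows share libraries. All 212358 windows lay within the chromosome ends of hg38.

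Starts came from GENCODE release 44 and sequences from hg38. The fit used edgeR 4.0.16 under R 4.3.3, with filterByExpr on the 2 groups, TMM factors, the quasi-likelihood test on the counts, no covariate and a threshold of 0.05 on the Benjamini-Hochberg adjusted p. Log2 CPM used a prior count of 2. Alternatives were DESeq2 1.42.0, its size factors, no filter, limma 3.58.1 with library quality weights, the replicate block and fits without single libraries. This fit was first tested on simulated data. No 2 libraries of a group agreed within sampling noise (chi-square per degree of freedom 1.63 to 4.99 over 56 pairs).

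Named in full were the 3 highest promoters of each cluster by control level, the C-type genes, PCDHB1, any called window and the 4 smallest p-values. PCDHGA11, the other list genes and the region's other windows named with values were chosen after their values were seen. The members and lists were chosen with earlier results of these data known. 1 gene of the HEK293T marker list is not reported here.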

Additional observations from a re-analysis of the deposited data

Results flagged for a closer look

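Each group of 8 libraries at each of the 23 windows was examined for a library far from the other 7, by its gap to the nearest relative to the range. Of 46 groups, 2 held such a library, about the 1 in 20 that chance gives, and both times it was control replicate 12, the shallowest library. At PCDHGB7 it measured 0.80 log2 CPM, below the next at 1.98. In the second PCDHA11 window, which was not tested, it measured 1.99, above the next at 0.33. Its 31.0% of counts in the top decile of windows was the lowest share of the 16 libraries, and the part of this flat signal in the 2 values was not tested.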

How the results depend on the processing

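Under all 22 alternatives, 0 protocadherin windows were called, and their median log2 fold change lay between 0.0534 and 0.126, against 0.124. Fits without 1 library gave medians from 0.0665 to 0.115, lower by over 1.5 times without control replicate 11 (0.079) or 15 (0.0817) or dTAGV-1 replicate 9 (0.0743), 11 (0.0711), 13 (0.0665) or 14 (0.0751), and limma voom gave 0.0715. The members with an unadjusted p below 0.05 numbered 0 to 2 in these fits, 2 without dTAGV-1 replicate 13. The number of windows called over the whole table, 397, was 632 without control replicate 12, between 321 and 406 without any other single library, and 781 without replicates 11 and 12 of both groups. The cause was not tested. In that last fit 20 of the 21 members passed the filter.

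With the replicate number as a block, 753 windows were called over the whole table and 0 of the members, with a median of 0.122. The window upstream of PCDHGC4 then had an edgeR unadjusted p = 0.0316, adjusted p = 1.0. Nothing in the labels says what a shared number stands for. Deviations of same-numbered libraries correlated at 0.0276 to 0.336, positive in 8 of 8 pairs and over 0.1 in 5 of 8, and 5 of the 8 control libraries correlated best with their own number. This is a hint of pairing from the data that the design does not state, and it was below 0.1 in replicates 9, 13 and 16. Control replicates 13, 15 and 16 all correlated best with dTAGV-1 replicate 15. The highest value, 0.336, was replicate 12, with a flat signal in both groups, and the part of that flat signal in the correlation was not tested.

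The 19 genes with a window became 18 within 250 bp of a start, where PCDHAC1 was lost, and 20 within 1000 bp, where PCDHA8 was gained. PCDHGB5, with 4 to 13 counts a control library, had a standard error of 0.34, against 0.14 at PCDHGC3.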
